A study of Mus musculus with 4 samples.

Results

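The tumour necrosis factor (TNF) superfamily was examined as 34 genes, 15 ligands and 19 receptors, out of 20659 genes that could be named on the arrays. The members were chosen by name. They are the genes whose symbol starts with Tnfsf or Tnfrsf, together with Tnf, Lta, Ltb, Ltbr, Cd70 and Cd40 and without Tnfrsf17, Tnfrsf18 and Tnfrsf4. The RefSeq table lists 36 such symbols, and 34 of them had a matched probe. Tnfsf13 was among the 2 without a matched probe, but the readthrough transcript Tnfsfm13, which joins Tnfsf12 and Tnfsf13, had a pair of probes. RNA came from lamina propria lymphocytes, the immune cells of the connective tissue under the gut epithelium, of C57BL6 mice on day 10 after dextran sulfate sodium (DSS), a chemical that injures the colon lining. There were 4 groups with 1 array each. Wild type mice received DSS alone (WT-DSS) or together with LIF (WT-LIF), and so did Stat4-/- mice (KO-DSS and KO-LIF). LIF, leukemia inhibitory factor, is a cytokine related to interleukin-6. All 4 groups received DSS, so no array analysed here shows an uninjured gut. Cells were isolated from 5 mice in each group, and whether their RNA was pooled, the dose of LIF, the age of the mice and the part of Stat4 that is deleted are not given in the sources used here.

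Ligands of the TNF superfamily are mostly membrane-bound trimers that can be shed, and their receptors signal by recruiting TRAF adaptors or, where they carry a death domain, TRADD and FADD. The main outputs are the transcription factor NF-kB and, from death receptors, caspase-8. In the gut, TNF drives inflammation, and neutralizing it is an established treatment of inflammatory bowel disease. Lymphotoxin organizes lymphoid follicles, BAFF supports B cells, TRAIL kills target cells, and RANK is needed for the M cells that sample luminal antigen.

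A single array stands for each group, so the differences lack replicates and were not tested, and the number of arrays limits their precision. A level is the log2 of the background-subtracted signal of a probe relative to the 75th percentile of its array, and it is compared between arrays only within 1 probe. Measured means that the gene's probe was well above background, a mark set by the scanner software, on both arrays of a comparison. The 75th percentile itself was between 23.8 (WT-LIF) and 122.9 (WT-DSS). Over 12674 probes well above background on every array, the WT-LIF array correlated with the others at r = 0.80 to 0.82, and the other 3 correlated at 0.95 to 0.98. The 2 DSS arrays were read in the same scan, and each LIF array in a scan of its own. The single Stat4 probe was 0.80 log2 higher in the knockout under DSS and 0.70 lower (−0.70) under DSS and LIF, so it did not separate the genotypes, and whether it lies in the deleted part is not given. Knockout means the libraries labelled Stat4-/- from here on. T cell markers (8 of 8) were well above background on every array, as were 5 to 7 of 7 B cell markers, but so were 7 of 7 epithelial markers, 2 to 5 of 8 neutrophil markers and 6 of 7 stromal markers.

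A core of 15 members was well above background on every array, and 8 were not on any. Ligands were the sparser side. On the WT-DSS array 9 of 15 ligands and 17 of 19 receptors were well above background, or 26 of 34 members against 67.8% of all named genes. The counts were 17 of 34 on WT-LIF (44.8% of all genes), 19 of 34 on KO-DSS (51.7%) and 19 of 34 on KO-LIF (52.4%). The array with the highest 75th percentile had the highest share and the one with the lowest had the lowest. The 8 members below that mark throughout were the ligands Lta, Cd70, Tnfsf4 (OX40 ligand), Tnfsf11 (RANK ligand), Tnfsf14 (LIGHT) and Tnfsf18 (GITR ligand) and the receptors Tnfrsf8 (CD30) and Tnfrsf13b (TACI), for the brighter probe of each gene. The other probe of Tnfrsf13b was well above background on the WT-DSS array alone. Another 5 members, Tnf, Tnfsf8 (CD30 ligand), Tnfsf13b (BAFF), Tnfrsf11b (osteoprotegerin, a decoy receptor) and Tnfrsf22 (a decoy TRAIL receptor), were, for the brighter probe of each gene, well above background on the WT-DSS array alone. Their levels there, from −3.05 for Tnf to −2.23 for Tnfsf13b, lie below the lowest level that was well above background on any of the other arrays (−1.49, −2.13 and −2.04). No probe at so low a level relative to the 75th percentile was well above background on those arrays. That percentile was highest on WT-DSS, so the same level stands for a brighter signal there. No bound and no difference is given for these 5 members.

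**Figure D1:**
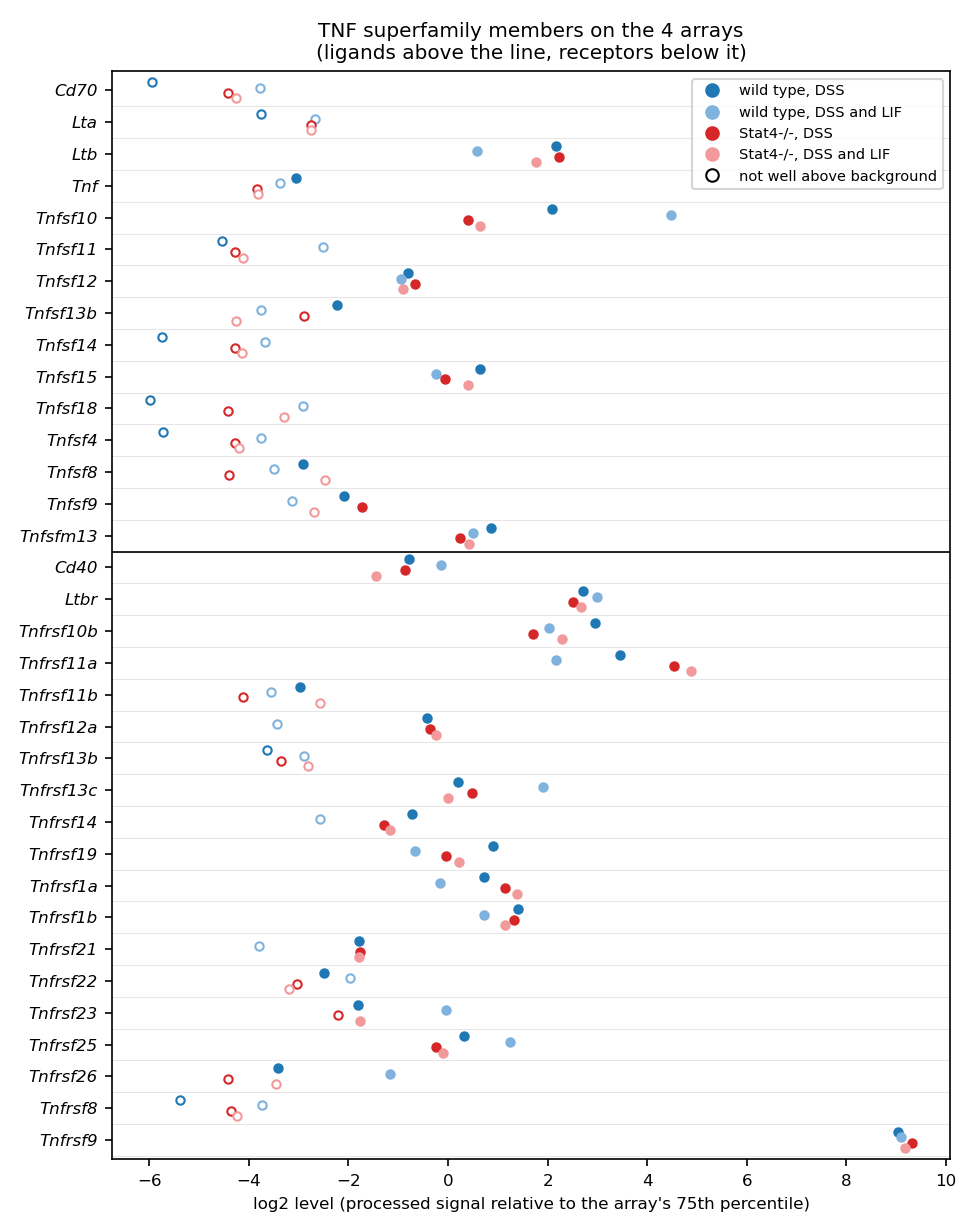
Log2 levels of the 34 TNF superfamily members (rows) on the 4 arrays (colours), relative to the 75th percentile of each array. Filled points are well above background and open points are not. Positions should be compared within a row only. The open points of the 8 members not detected on any array lie at low levels, and Tnfsf10 and Tnfrsf11a have the widest spread among the 15 members filled on every array.

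Tnf and Lta, neighbouring genes on chromosome 17, and the TNF receptor gene Tnfrsf1a were each read by a probe spotted 10 times, which gives the error within an array. The log2 level of Tnf was −3.05 ± 0.15 (SD, n = 10 spots) on WT-DSS, with all 10 spots well above background. It was −3.37 ± 0.39 (SD, n = 10 spots) on WT-LIF, −3.84 ± 0.62 (SD, n = 10 spots) on KO-DSS and −3.82 ± 0.54 (SD, n = 9 spots) on KO-LIF, with 0 spots well above background. Tnf, the founding ligand of the family, was thus read near the detection limit. Of the Lta spots 2 of 10 were well above background on WT-DSS and 0 on the other arrays. Lta encodes a subunit of lymphotoxin and a soluble ligand of the TNF receptors.

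Tnfrsf1a, which encodes TNF receptor 1, the death-domain receptor for TNF, was by contrast read with little spread between spots. Its level was 0.72 ± 0.04 (SD, n = 9 spots) on WT-DSS and −0.16 ± 0.15 (SD, n = 10 spots) on WT-LIF. In the knockout it was 1.14 ± 0.05 (SD, n = 10 spots) with DSS and 1.39 ± 0.03 (SD, n = 8 spots) with DSS and LIF. The ranges of the spots do not overlap between any 2 of the 4 arrays, but all spots of an array share its background correction and scaling. The LIF difference in the knockout was 0.25, but −0.19 and −0.47 under normexp background correction with an offset of 50 and without one. The genotype difference under DSS was 0.42, but 0.09 and 0.33 under these settings. The second Tnfrsf1a probe was well above background on WT-DSS alone. Animal and preparation error is not in these SDs. Over all probes with replicate spots the median SD of a log2 difference was between 0.10 and 0.11, and the scanner software's own error of a measured member's difference was 0.20 to 0.40.

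**Figure D2:**
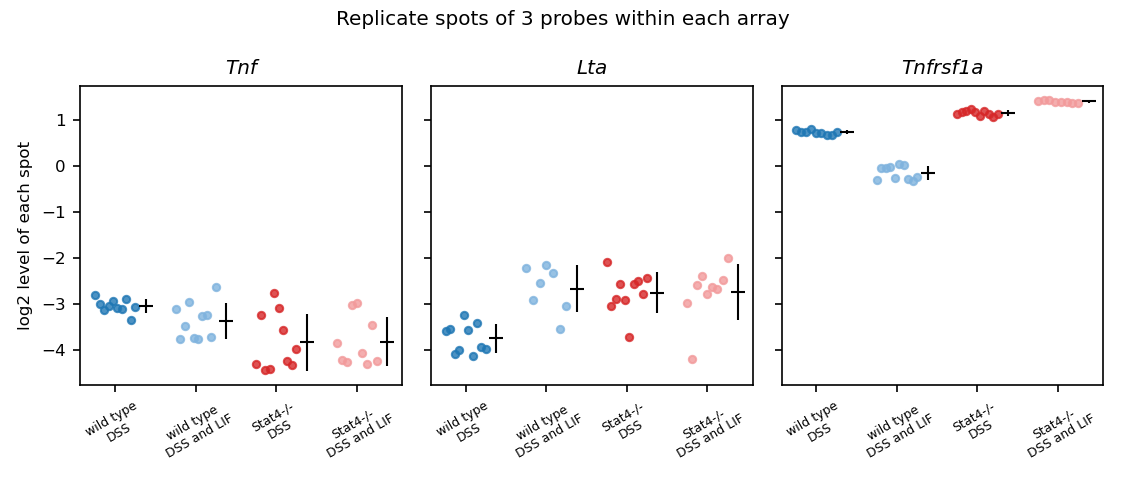
Log2 level of each replicate spot (points) of the Tnf, Lta and Tnfrsf1a probes on each of the 4 arrays, with the mean and SD over spots beside them. Tnfrsf1a spots form 4 separate bands from −0.16 to 1.39 on average, whereas Tnf and Lta spots scatter below −2.

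The comparison of the knockout with wild type under DSS addresses how gene expression differs with Stat4, the transcription factor downstream of interleukin-12. The TRAIL ligand and its death receptor were lower in the knockout, and RANK was higher. Of 19 measured members 1 was at least 2-fold higher, against 13.2% of all measured genes, and 2 were at least 2-fold lower, against 6.89%, so 3 of 19 differed in either direction beside 20.1% of all genes. The median log2 difference of the members was −0.08, and that of all 10527 measured genes was 0.07. The share of members past 2-fold was thus near that of genes at large.

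Tnfsf10 encodes TRAIL, a ligand that is induced by interferons and that triggers apoptosis. Its level was 2.08 on WT-DSS and 4.47 on WT-LIF, but 0.39 on KO-DSS and 0.65 on KO-LIF. Both wild type arrays lie above both knockout arrays, as they also do for Cd40, Ltbr, Tnfrsf25 and the main probe of Tnfsfm13. The share of all genes with such an order was not computed. Under DSS Tnfsf10 was 3.23-fold lower in the knockout (log2 difference −1.69, software error 0.21). Tnfrsf10b encodes the mouse TRAIL death receptor. Its levels were 2.96 in wild type and 1.72 on KO-DSS, a 2.36-fold lower value (log2 difference −1.24, software error 0.21), and 2.03 and 2.28 with DSS and LIF. The WT-DSS array alone stands high for this receptor. Among the decoy receptors for TRAIL, Tnfrsf23 was read at −1.81 on WT-DSS and was not well above background in the knockout, at least 1.25-fold lower, while Tnfrsf22 and Tnfrsf11b could not be compared.

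Tnfrsf11a encodes RANK, the receptor of RANK ligand. It was read at 3.45 on WT-DSS, 2.17 on WT-LIF, 4.54 on KO-DSS and 4.87 on KO-LIF. Both knockout arrays were above both wild type arrays, as they also were for Tnfrsf1a and the main probe of Tnfrsf9. The difference of Tnfrsf11a under DSS was 2.14-fold (log2 difference 1.09, software error 0.20), just past the fold used for counting. With normexp background correction (offset 50) it was 0.36 and with normexp and no offset 0.81, so this count of 1 rests on the background correction. Tnfsf11, its ligand, was not well above background on any array.

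Several members lay below the 2-fold mark but beyond their software error under DSS. Tnfrsf19 (TROY), a receptor known from epithelial stem cells, was lower by 0.96 log2 (−0.96). The value was past 2-fold after centring on the median of all genes (−1.03) and in the authors' deposited table (−1.07). It was smaller under normexp with and without the offset (−0.64 and −0.79) and as the mean over probes (−0.43). The second Tnfrsf19 probe was not well above background on any array. Tnfsf15 (TL1A), a ligand linked to inflammatory bowel disease, was lower by 0.70 (−0.70). Its receptor gene Tnfrsf25 (death receptor 3) also had the lower value in the knockout (−0.56), with levels of 0.32 and −0.24. Tnfrsf14 (HVEM), the receptor of LIGHT on lymphocytes and epithelium, was at −0.73 in wild type and −1.29 in the knockout (log2 difference −0.56). It passed 2-fold in 4 of 8 alternatives, with −1.15 and −2.17 under normexp with and without the offset, −1.71 as the mean over probes and −3.10 in the authors' deposited table. TNF receptor 1 was 1.34-fold higher in the knockout, while TNF receptor 2, encoded by Tnfrsf1b, had levels of 1.40 and 1.32. The lymphotoxin genes Ltb (2.17 and 2.23) and Ltbr (2.71 and 2.51) and the costimulatory receptor gene Cd40 (−0.79 and −0.87) differed by less than the software error. So did Tnfsf12 (TWEAK; −0.80 and −0.65), its receptor gene Tnfrsf12a (−0.43 and −0.36) and Tnfrsf21 (death receptor 6; −1.80 and −1.77). The remaining measured members were Tnfsf9 (4-1BB ligand), with −2.08 in wild type and −1.73 in the knockout, its receptor Tnfrsf9, and the BAFF receptor gene Tnfrsf13c.

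**Figure D3:**
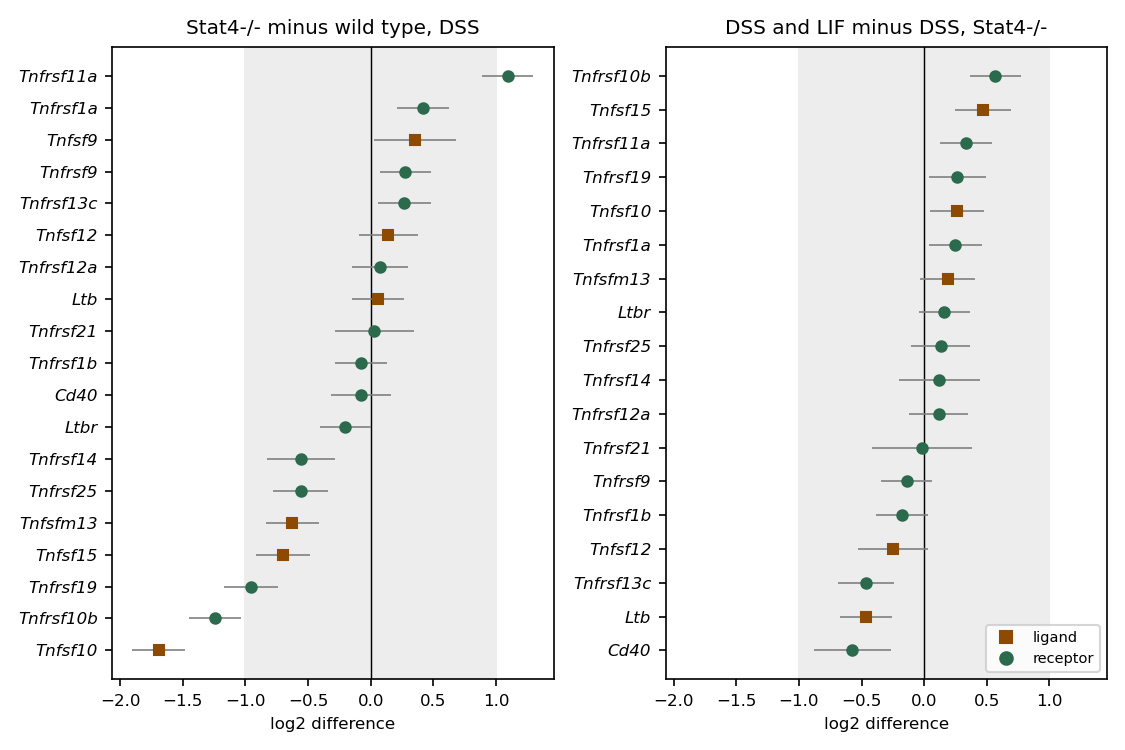
Log2 differences of the measured members (rows) between knockout and wild type under DSS (left) and between DSS with LIF and DSS alone in the knockout (right). Bars are the scanner software's error of a difference within arrays, not replicate error, and the grey band spans a 2-fold change in either direction. On the left Tnfsf10 and Tnfrsf10b lie below the band and Tnfrsf11a above it. On the right all 18 members lie inside it.

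For 4 members a second probe was measured on both DSS arrays, and it did not always give the same answer. The 2 probes of Tnfrsf13c, which encodes the BAFF receptor of B cells, gave 0.27 and 1.31, both higher in the knockout. Those of Tnfrsf14 gave −0.56 and −2.86, both lower. For Tnfsfm13 the main probe gave −0.62 and the other 1.81, and for Tnfrsf9 (4-1BB, a costimulatory receptor of activated T cells) they gave 0.27 and −0.45, so no direction is stated for these genes. The main and second probe of Tnfrsf9 stood at 9.04 and −1.01 on WT-DSS, and which of them reads the gene was not tested. Across all genes with a pair of measured probes in this comparison, the differences of the probes correlated at r = 0.39 (1824 genes, which are not independent). Tnfsf10, Tnfrsf10b and Tnfrsf11a have 1 probe each and no such check.

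Markers of other cell types also differed between these arrays, and fewer cells of a type cannot be told apart from less RNA per cell. With levels summed over a list in multiples of the array's 75th percentile, NK cell markers were at 37.6 in wild type and 13.5 on KO-DSS. Of their 5 measured genes 3 were at least 2-fold lower, and Ncr1 was not well above background in the knockout. The other measured genes, Prf1 (log2 difference 0.59) and Klrb1c (0.02), were not lower. T cell markers were at 32.5 and 20.5 (1 of 8 at least 2-fold lower). The sums of these lists moved in the direction of Tnfsf10 and Tnfrsf10b. Neutrophil markers were at 350.4 and 2387 (4 of 4 at least 2-fold higher), stromal markers at 3.95 and 14.9 (4 of 6) and B cell markers at 8.85 and 15.8 (3 of 6), the direction of Tnfrsf11a and Tnfrsf13c. Epithelial markers were at 28.0 and 30.3, with 1 of 7 at least 2-fold higher (Tff3, log2 difference 1.18) and 1 lower (Krt20, −1.40). All of them but Tff3 were lower in the knockout, and the median log2 difference of the list was −0.57. The part of these lists in the differences of the members was not tested.

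The promoters of Tnfsf10 and Tnfrsf11a, which lay past 2-fold in opposite directions under DSS, are shown beside those of Ltb and Tnfrsf1b, which are among the members that hold STAT-type letters. Each is the 250 bases before the annotated start (RefSeq, GRCm38.p6), 5′ to 3′ on the gene's strand. Capitals mark matches on either strand to 3 motifs: TTCNNNGAA, the palindrome that STAT dimers bind; GAAA followed by any 2 bases and GAAA, the core of the interferon-stimulated response element (ISRE); and the NF-kB consensus. The regions are chr3:27316827-27317076 (+) for Tnfsf10, chr1:105780473-105780722 (+) for Tnfrsf11a, chr17:35194257-35194506 (+) for Ltb and chr4:145246871-145247120 (−) for Tnfrsf1b.
Tnfsf10: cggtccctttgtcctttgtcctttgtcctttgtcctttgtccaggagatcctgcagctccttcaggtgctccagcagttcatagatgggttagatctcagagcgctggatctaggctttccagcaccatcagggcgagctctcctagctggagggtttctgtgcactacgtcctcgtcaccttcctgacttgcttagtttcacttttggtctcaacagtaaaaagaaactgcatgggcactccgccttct
Tnfrsf11a: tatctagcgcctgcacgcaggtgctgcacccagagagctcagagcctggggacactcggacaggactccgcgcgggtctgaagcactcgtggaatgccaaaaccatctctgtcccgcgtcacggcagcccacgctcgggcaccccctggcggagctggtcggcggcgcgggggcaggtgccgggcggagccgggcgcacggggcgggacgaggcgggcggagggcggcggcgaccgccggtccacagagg
Ltb: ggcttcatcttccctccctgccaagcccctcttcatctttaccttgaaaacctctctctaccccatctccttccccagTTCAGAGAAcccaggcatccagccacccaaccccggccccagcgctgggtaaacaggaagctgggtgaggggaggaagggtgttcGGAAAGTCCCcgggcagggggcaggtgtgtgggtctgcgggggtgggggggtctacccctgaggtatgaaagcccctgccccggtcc
Tnfrsf1b: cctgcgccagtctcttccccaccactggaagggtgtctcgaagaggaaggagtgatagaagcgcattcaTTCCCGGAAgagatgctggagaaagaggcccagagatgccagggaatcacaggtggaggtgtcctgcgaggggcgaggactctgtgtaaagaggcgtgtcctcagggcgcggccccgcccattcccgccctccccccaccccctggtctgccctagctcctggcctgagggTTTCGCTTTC
The Ltb window holds TTCNNNGAA at bases −172 to −164 and an NF-kB match on the opposite strand at −87 to −78, counted back from the start. The Tnfrsf1b window holds TTCNNNGAA at −181 to −173 and the ISRE core, on the opposite strand, at −10 to −1. No match overlaps another. The windows of Tnfsf10 and Tnfrsf11a hold none of the 3 motifs, which says only that these letters are not in this stretch. Of 25 members in the promoter table, 6 had TTCNNNGAA (Lta, Ltb, Tnfrsf1a, Tnfrsf1b, Tnfrsf25 and Tnfrsf9), against 8.13% of all genes in the table. Their genotype differences under DSS were 0.06 for Ltb, 0.42 for Tnfrsf1a, −0.08 for Tnfrsf1b, −0.56 for Tnfrsf25 and 0.27 or −0.45 for the probes of Tnfrsf9. Lta was not measured. Whether these letters bear on the differences was not tested. The ISRE core was found in 3 members (3.46% of all genes) and the NF-kB consensus in 4 (8.23%). A match is a description of the letters and not a binding site.

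LIF in the knockout addresses what LIF does without Stat4, and the members differed little between these arrays, which were read in separate scans. Of 18 measured members 0 were at least 2-fold higher, against 3.22% of all 9789 measured genes, and 0 were at least 2-fold lower, against 3.07% (6.29% in either direction). Differences ran from −0.57 for Cd40 to 0.57 for Tnfrsf10b, with a median of 0.13 beside −0.01 for all genes. Cd40, the receptor by which T cells help B cells and antigen-presenting cells, went from −0.87 to −1.44. Ltb was 0.47 lower (−0.47) and Tnfrsf13c 0.46 lower (−0.46), and both are expressed by B cells. B cell markers had a summed level of 15.8 with DSS and 9.20 with DSS and LIF, and 1 of 5 measured was at least 2-fold lower. Their part in these values was not tested. Tnfsf15 was 0.47 higher. Tnfsf10 and Tnfrsf11a had values of 0.26 and 0.33, for which no direction is stated, since both normexp settings turned the sign of 9 of 17 members measured there. Under normexp with and without the offset Tnfrsf11a was −0.54 and −1.03, Tnfsf10 −0.018 and −0.12, Tnfrsf10b −0.060 and −0.37, and Cd40 0.08 and 0.31. The second probe of Tnfsfm13 was 1.27 lower (−1.27), while its main probe gave 0.19.

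LIF in wild type and the genotypes under DSS and LIF both use the array that stands apart. All genes measured in the LIF comparison of wild type had a median of 0.57, or 0.43 with scaling to the median of bright probes, and those of the genotype comparison a median of −0.45, or −0.31. Of 17 members measured for LIF in wild type, 4 were at least 2-fold higher, against 34.5% of all genes, and 3 were lower, against 13.7% (48.1% in either direction). The higher ones were Tnfsf10 (5.24-fold, from 2.08 to 4.47), Tnfrsf26 (a receptor with few known functions; 4.74-fold, from −3.41 to −1.17), Tnfrsf23 (3.43-fold, from −1.81 to −0.03) and Tnfrsf13c (3.26-fold, from 0.20 to 1.91). The lower ones were Ltb (3.02-fold, from 2.17 to 0.58), Tnfrsf19 (2.99-fold, from 0.91 to −0.67) and Tnfrsf11a (2.42-fold, from 3.45 to 2.17). Tnfrsf12a, the TWEAK receptor gene, was well above background on the other 3 arrays and not on this one, at least 2.09-fold lower than on WT-DSS. The second Tnfrsf13c probe was not well above background with LIF, and the mean over both probes gave −0.06 in place of 1.70 for this gene. Tnfsf10, Tnfrsf26, Ltb and Tnfrsf11a stayed past 2-fold under all 8 processing alternatives, and the other 3 under 6 or 7. Leaving out the background filter does not change a measured value. The mean over probes does not change a gene with a single probe, as each of the first 4 has. For these 4 neither alternative is a check. Tnfrsf26 and Tnfrsf23 lay on WT-DSS below the lowest level well above background on WT-LIF (−1.49). They could be measured here only if higher with LIF, so the filter fixed their direction and their stability adds no support. After centring on the median of all genes 4 members were higher and 7 lower.

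A pair of observations bears on the array itself. The second probe of Tnfrsf22 was well above background on this array alone (−0.31, against −5.33 on WT-DSS and −4.42 and −4.25 in the knockout), while the main probe of the same gene was not. Over all genes with a pair of measured probes, their LIF differences in wild type correlated at r = 0.10 (1286 genes). Summed NK and T cell marker levels were 85.9 and 56.5 here, above the 37.6 and 32.5 of WT-DSS, with 1 of 4 and 2 of 8 measured genes at least 2-fold higher. Of 7 epithelial markers 2 were at least 2-fold higher (Tff3 by 3.19 log2 and Krt20 by 2.16) and 3 lower (Epcam, Krt8 and Krt19, −2.64, −1.56 and −1.66). Their part in the members' values was not tested.

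Between genotypes under DSS and LIF, 16 members were measured, with 3 at least 2-fold higher in the knockout, against 14.1% of all genes, and 5 lower, against 31.3% (45.4% in either direction). Tnfrsf11a was 6.51-fold, Tnfrsf1a 2.93-fold and Ltb 2.28-fold higher. Tnfsf10 was 14.2-fold lower, followed by Tnfrsf13c (3.74-fold), Tnfrsf23 (3.34-fold), Tnfrsf25 (2.55-fold) and Cd40 (2.46-fold). Tnfsf10 and Tnfrsf11a stayed past 2-fold under all 8 alternatives, and the other 6 under 5 or 6. No filter and the mean over probes could not change Tnfsf10 and Tnfrsf11a, which have a single probe each. Tnfrsf23, at −1.77 on KO-LIF, lay below the lowest level well above background on WT-LIF (−1.49). It could be measured here only if lower in the knockout. Tnfrsf12a was at least 2.38-fold higher. This comparison shares no array with the one under DSS. Of 15 members measured in both, 10 had the same sign, against 51.5% of 8045 genes. Tnfsf10 was at least 2-fold lower and Tnfrsf11a at least 2-fold higher in both. That is 1 of 15 members in each direction, beside 281 genes lower and 278 higher in both among all 8045. Tnfrsf10b, lower under DSS, had a difference of 0.26 under DSS and LIF. Summed NK cell markers were at 85.9 in wild type and 9.24 in the knockout, and T cell markers at 56.5 and 18.4, the direction of Tnfsf10. The epithelial sum, 99.4 and 32.5, had this direction too, but its genes were split. Epcam (log2 difference 2.73), Krt8 (1.97) and Krt19 (1.86) lay past 2-fold upwards in the knockout. Krt20 (−3.04) and Tff3 (−2.52) lay past it downwards, and Vil1 (−0.80) and Cdh1 (−0.71) were lower within it. Tff3 had the highest epithelial level on both arrays (6.17 on WT-LIF and 3.65 on KO-LIF). Sums of B cell, plasma cell, macrophage and dendritic cell markers were also lower in the knockout. At least 2-fold lower were 2 of 5, 1 of 5, 2 of 4 and 0 of 1 measured genes, and 0 were at least 2-fold higher. Some went the other way, among them Cd79b (log2 difference 0.44), Derl3 (0.59) and Csf1r (0.75), and Lyz2 was at least 2.52-fold higher. Sums of neutrophil (270.7 and 1848), stromal (4.08 and 8.99) and endothelial markers were higher. Plvap, at −1.07 on WT-LIF and 10.33 on KO-LIF, carried the endothelial sum. The part of these lists in the members' values was not tested. The LIF differences of wild type and knockout, which also share no array, had the same sign in 6 of 15 members, against 46.5% of all genes. They were of opposite sign and at least 2-fold apart in 7 of 15, against 34.3% of all 8045 genes, but in 1 and 2 of 15 under normexp with and without the offset.

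**Figure D4:**
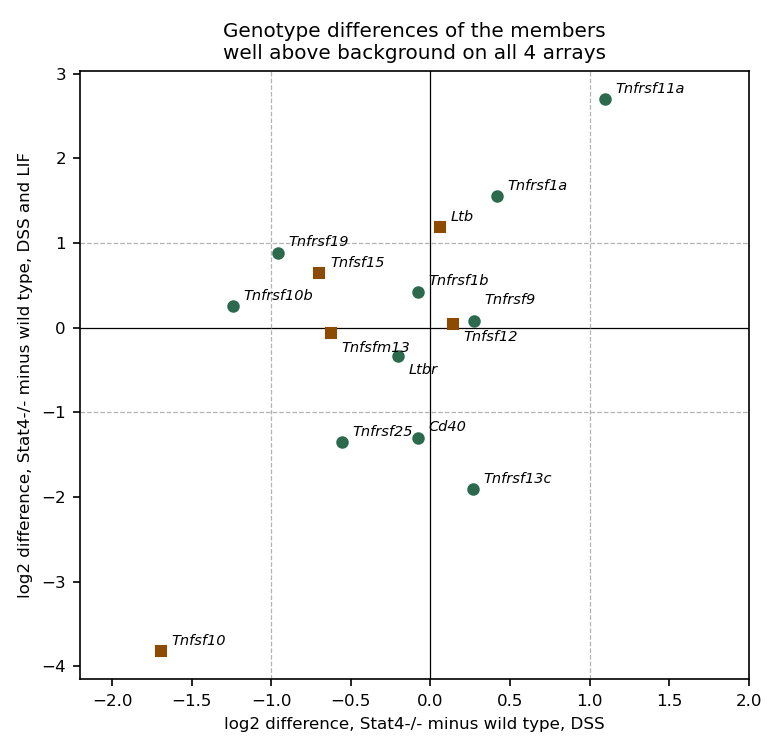
Log2 difference between knockout and wild type under DSS (horizontal axis) and under DSS and LIF (vertical axis) for the 15 members well above background on all 4 arrays. Squares are ligands, circles are receptors, and dashed lines mark 2-fold. Tnfsf10 (−1.69 and −3.82) and Tnfrsf11a (1.09 and 2.70) are the only points past 2-fold on both axes, and the other 13 lie within 2-fold on at least 1 axis.

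The genes around the family were read from lists of other superfamily members, adaptors, NF-kB components and NF-kB target genes. In the knockout under DSS the ligand and receptor genes not named Tnfsf or Tnfrsf were mostly below background. Only 2 of 10 were measured, Fas (0.20) and its ligand Fasl, which was 2.03-fold lower (log2 difference −1.02). Cd27, the receptor of CD70, and Cd40lg, the ligand of CD40, were not well above background on both arrays. Among 13 measured adaptor and death pathway genes 0 were at least 2-fold higher and 1 was lower, Fadd (2.25-fold), the adaptor that links death receptors to caspase-8. The median of these measured genes was −0.20. Tank and Traf6 were not well above background in the knockout, at least 2.79-fold and at least 1.33-fold lower. Tradd (−0.20), Casp8 (−0.17), Traf2 (0.58) and Adam17 (0.18), which encodes the protease that sheds TNF, were within the 2-fold mark.

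NF-kB subunits and regulators had a median of 0.05, with 1 of 19 past 2-fold downwards and 3 upwards. Tnip1, which encodes a partner of the NF-kB inhibitor A20, was 12.9-fold higher, with levels of 1.05 in wild type and 4.74 in the knockout. Rnf31, which encodes the catalytic subunit of the linear ubiquitin ligase, was 2.66-fold higher and the deubiquitinase gene Cyld 2.15-fold lower. Tnfaip3, which encodes A20, was at 5.36 and 5.32, and the inhibitor gene Nfkbia at 4.55 and 4.39. The 9 measured NF-kB target genes had a median of 0.79, with 3 past 2-fold upwards and 2 downwards. The adhesion molecule gene Vcam1 was 6.29-fold and the neutrophil chemokine gene Cxcl1 2.10-fold higher, and the chemokine genes Ccl2 and Ccl5 were 2.15-fold and 2.00-fold lower. Cxcl10, not well above background in the knockout, was at least 2.44-fold lower and is not in these counts. The backgrounds are the 13.2% and 6.89% given above. Stromal and neutrophil marker levels were higher on the same array, and their part in these values was not tested. With LIF in the knockout 1 of the measured genes of these lists (2, 12, 19 and 9) was at least 2-fold higher, against 3.22% of all genes, namely Cyld (2.43-fold). Against 3.07% of all genes, 2 were lower, Vcam1 (3.77-fold) and Tnip1 (2.68-fold).

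**Figure D5:**
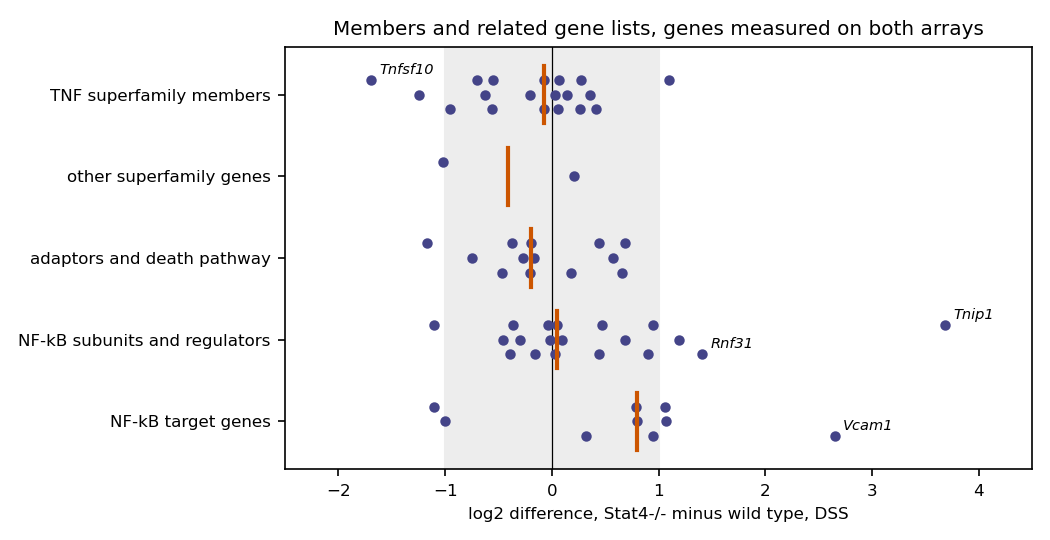
Log2 difference between knockout and wild type under DSS for the measured members and for genes of 4 related lists (rows). Each point is a gene, the orange line is the median of the list, and the grey band spans a 2-fold change in either direction. Medians lie between −0.41 and 0.79, and Tnip1 (3.69) and Vcam1 (2.65) lie farthest out.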

How the data were processed

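Spot intensity was read by the authors with Agilent Feature Extraction (11.0.1.1 per the file headers, 9.1 in the submitters' processing notes), which subtracted the background. The deposited series table of log2 expression (normalization and centring not given in the sources used here) was used as an alternative. Its column medians were 3.31, 2.54, 3.31 and 3.31 in the order WT-DSS, WT-LIF, KO-DSS, KO-LIF, and it correlated with the scanner values at 0.97 to 0.99, so higher is brighter.

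Spots marked as outliers were left out, and no non-control spot was saturated. Spots of a probe were averaged as log2 processed signal minus the array's 75th percentile. For the mark, 50% or more of a probe's spots had to carry it. RefSeq accessions (GRCm38.p6 table) named 27234 of 39429 probes (69.1%), and of several probes the one with the highest mean was used. A gene below background on 1 array received a bound against the higher of its own value and the lowest level well above background there. Members and lists were chosen with earlier results of these data known. Members past 2-fold in a comparison without the array that stands apart were named with values on every array, with their ligands or receptors. Of each list around the family, up to 2 genes past 2-fold in each direction were named by size. Further members and list genes were named after their values were seen. Scripts used limma 3.58.1 for normexp and quantile scaling, and were tested on simulated data.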

Additional observations from a re-analysis of the deposited data

Results flagged for a closer look

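The LIF difference had opposite signs in knockout and wild type, at least 2-fold apart, in 7 of 15 members measured on all 4 arrays, against 34.3% of all 8045 genes. Each value below is the LIF log2 difference in the knockout minus that in wild type, and the difference was not tested, since each genotype has 1 array per treatment. It was 1.84 for Tnfrsf19, 1.61 for Tnfrsf11a, 1.50 for Tnfrsf10b, 1.34 for Tnfsf15 and 1.13 for Tnfrsf1a, all lower with LIF in wild type and higher in the knockout. It was −2.17 for Tnfrsf13c and −1.22 for Cd40, both higher with LIF in wild type and lower in the knockout. With normexp (offset 50) 0 of these 7 met this rule, and without an offset only Tnfrsf13c did. With the mean over probes Tnfrsf13c, Tnfrsf19 and Tnfrsf1a did not meet it. The other 4 have a single probe, which this mean cannot change. After centring Cd40 did not meet it. Quantile scaling, scaling to bright probes and the authors' table kept all 7. No filter kept them too, but it cannot change members measured on all 4 arrays. All 7 values use the WT-LIF array, which correlated least with the others.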

How the results depend on the processing

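No paired analysis was possible because each group has 1 array, and no replicate could be left out. The alternatives were normexp with offset 50, normexp without an offset, quantile scaling, scaling to the median of bright probes, no background filter, the mean over probes, the authors' table and, added after seeing the data, centring on the median of all measured genes. For LIF in the knockout either normexp turned the sign of 9 of 17 members, none of them past 2-fold before. Under DSS Tnfsf10 and Tnfrsf10b stayed at least 2-fold lower in the knockout in all 8, from −1.84 to −1.43 and from −1.46 to −1.24. Tnfrsf11a kept its sign in 8 and its 2-fold size in 6. Tnfsf10, Tnfrsf10b and Tnfrsf11a have a single probe each, so no filter and the mean over probes could not change their values. With the mean over probes the difference of Tnfrsf13c turned, to −0.058 for LIF in wild type and 0.50 for genotype under DSS and LIF.

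For genotype under DSS, the members at least 2-fold higher numbered 0 with either normexp and 6 without a filter, and those lower 5 without a filter and 4 in the authors' table. The median was −0.36 with normexp (offset 50). For LIF in the knockout, 3 were higher and 1 lower without a filter, and 1 (offset 50) and 3 (no offset) were lower with normexp, with medians of −0.018 and −0.12. For LIF in wild type, 2 were higher with normexp (offset 50) and 11 without a filter. Those lower were 6 with scaling to bright probes, 8 without a filter and 7 after centring. The medians were −0.49 and −0.30 with normexp with and without the offset, −0.29 with scaling to bright probes, −0.047 without a filter, −0.0051 with the mean over probes and −0.72 after centring. For genotype under DSS and LIF, 1 was higher with either normexp, 7 without a filter and 5 after centring. Those lower were 1 (offset 50) and 3 (no offset) with normexp, 8 without a filter and 3 after centring. The medians were −0.19 with normexp without an offset, −0.058 with quantile scaling, 0.20 with scaling to bright probes, −0.071 without a filter, −0.062 with the mean over probes, −0.090 in the authors' table and 0.51 after centring. Without a filter all 34 members enter at signals that include background, which adds to its counts. The cause of the other changes was not tested. Signal over background limits the 13 members read on at most 1 array.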

Other observations

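A pair of further genes, chosen after their values were seen, showed the order of levels of Tnfsf10 across the arrays or stood far out on the WT-LIF array. Cxcl10, an interferon-induced chemokine gene, was at −0.84 on WT-DSS and 2.09 on WT-LIF, and was not well above background on either knockout array, at least 2.44-fold and at least 17.6-fold lower. Mlkl, the executor of necroptosis downstream of TNF receptor 1, was at −1.63 on WT-DSS, 2.33 with DSS and LIF, and −0.97 and −1.39 in the knockout.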
